A study of Mus musculus with 2 samples.

Results

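Smooth muscle cells and pericytes are the mural cells of blood vessels. Smooth muscle cells wrap arteries and veins and contract through a smooth muscle actin and myosin apparatus, whereas pericytes lie within the basement membrane of capillaries, carry an ATP-sensitive potassium channel and hold little of that apparatus. Both sit directly on the endothelium, exchange PDGF and Notch signals with it, and in skeletal muscle set how much blood reaches the fibres.

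The cells described here are the barcodes annotated as Smooth Muscle by the study in droplet single-cell RNA sequencing (scRNA-seq) of mouse tibialis anterior muscle that had been injured with notexin, a snake venom toxin that destroys muscle fibres. 1 library was made at day 2 after injection and 1 at day 7. The sample labels give C57Bl/6 females of 7 months for both days, whereas the deposited cell annotation gives C57BL/6J males of 4 months at day 2 and 7 months at day 7, with 1 mouse per sample. The study's text also names female mice, and its text and summary table of datasets give 7 months for both samples. Its supplementary list of samples, in contrast, repeats the annotation. Day of collection, animal, library and, if the annotation holds, age therefore cannot be told apart, no test between days was possible, and every difference is a comparison of 1 library with 1 library.

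The label held 304 of 3537 annotated barcodes at day 2 and 238 of 3416 at day 7, 542 of 6953 in all. Limits on genes, transcripts and mitochondrial share kept all 304 at day 2 and 232 at day 7, of 6429 cells kept in both libraries. 0 of the labelled barcodes were shared by the libraries, and 1 barcode was shared among all kept cells. The labelled cells had a median of 13232 counts at day 2 (range 1417 to 77816) and 8635.5 at day 7 (1329 to 68934), and their counts summed to 5107695 and 2709692. Levels are given as these sums scaled to the same total in every group of cells (CPM), and brackets give exact intervals at 95% confidence that cover counting error only, not the spread between animals.

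The label was checked against 5 markers: Rgs5, a regulator of G protein signalling found in pericytes; Kcnj8 and Abcc9, the pore and the regulatory subunit of the mural ATP-sensitive potassium channel; Acta2, smooth muscle actin; and Myh11, smooth muscle myosin heavy chain. In the GRCm38 annotation Rgs5 (ENSMUSG00000026678) lies at chr1:169655501-169695813 on the plus strand. On the minus strand lie Kcnj8 (ENSMUSG00000030247) at chr6:142564837-142571614, Abcc9 (ENSMUSG00000030249) at chr6:142587862-142702315, Myh11 (ENSMUSG00000018830) at chr16:14194535-14291372 and Acta2 (ENSMUSG00000035783) at chr19:34241090-34255590. The leading genes of the label over all other kept cells were mural genes. At day 2 and day 7 respectively, Higd1b, a mitochondrial protein of pericytes, stood 116-fold and 112-fold above the other cells. Kcnj8 stood 177-fold and 65.3-fold above them, Myh11 78.9-fold and 221-fold, and Rgs5 43.5-fold and 70.1-fold. Among the top 10 genes by fold, 4 at day 2 and 8 at day 7 were on the lists of mural genes and 0 were on the endothelial list. These folds describe what the annotation gathered and are not a test of it.

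Cell by cell, however, most of the label carried endothelial transcripts, and that goes against its name. A cell was counted as holding mural markers when it had at least 3 counts over Rgs5, Myh11, Acta2, Kcnj8, Abcc9, Notch3, Higd1b and Vtn, and as holding endothelial markers when it had at least 3 over Pecam1, Cdh5, Kdr, Flt1, Tie1, Cldn5, Egfl7, Emcn, Robo4 and Erg. Mural markers were held by 66.1% of labelled cells at day 2 (60.5 to 71.4) and 63.8% at day 7 (57.2 to 70.0). Endothelial markers were held by 95.4% (92.4 to 97.5) and 84.9% (79.6 to 89.3). At day 2, 187 cells held both lists, 103 endothelial markers only, 14 mural markers only and 0 neither. The same groups held 113, 84, 35 and 0 cells at day 7.

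The cells with endothelial markers only were not shallow. Their median was 11159 counts at day 2 and 8661 at day 7, against 4514.5 and 2724 for the cells with mural markers only and 16509 and 12441 for the cells with both lists. A cell with endothelial markers only held a median of 75 endothelial marker counts at day 2 (range 32 to 223) and 86.5 at day 7 (35 to 294). Near the mural threshold, 16 labelled cells at day 2 and 14 at day 7 had 2 or 3 mural marker counts. Depth moved the shares. When every cell was thinned to 2000 counts, which left out 2 cells at day 2 and 9 at day 7, mural markers were held by 47.4% and 46.6% of cells and endothelial markers by 93.0% and 87.4%. As background, 27.4% of cells with endothelial labels at day 2 and 15.9% at day 7 held mural markers, or 10.5% and 8.98% at 2000 counts. Those cells had medians of 6104.5 and 4217 counts. Among monocytes and macrophages at day 2 the share with mural markers was 0.310%. Among FAP labels, with medians of 24329 and 8429 counts, it was 22.8% at day 2 and 23.2% at day 7, or 0.469% and 3.06% at 2000 counts.

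**Figure D1:**
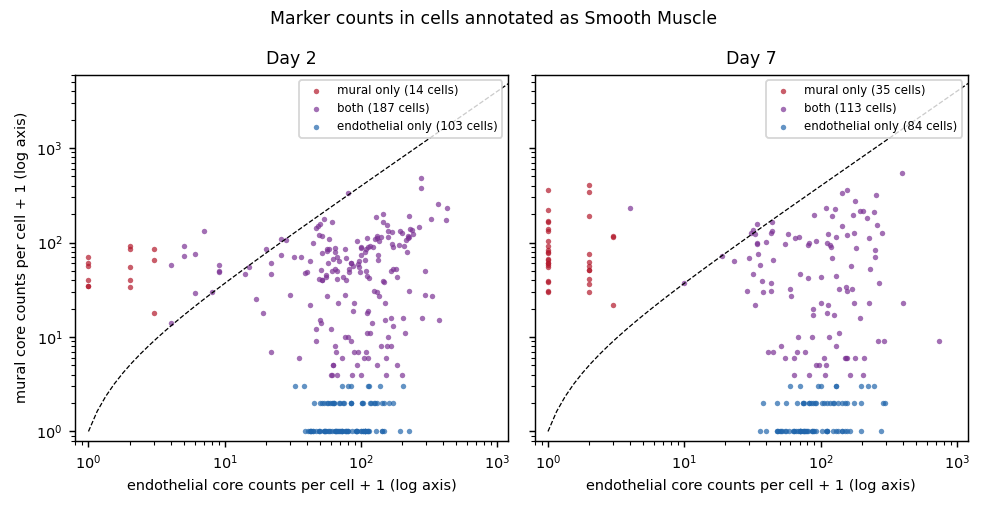
Each point is 1 cell annotated as Smooth Muscle, with its endothelial core counts plus 1 on the x axis and its mural core counts plus 1 on the y axis, both log axes, at day 2 (left) and day 7 (right). The dashed line marks an endothelial share of 20% of these counts, and 28 cells at day 2 and 39 at day 7 lie above it, while 103 and 84 cells lie along the bottom with endothelial markers only.

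The endothelial signal in the label was close to that of the cells annotated as endothelial (336 cells at day 2 and 333 at day 7). Over 24 endothelial genes, the CPM in labelled cells was a median of 84.0% of the CPM in endothelial labels at day 2, from 34.4% for Plvap, a protein of fenestrated endothelium, to 117% for Cd36, a fatty acid receptor. At day 7 the median was 82.9%, from 31.6% for Vwf, the clotting factor stored in endothelial granules, to 104% for Sox17, an arterial transcription factor. In the labelled cells with endothelial markers only the medians were 104% and 95.9%, and in those with both lists 77.3% and 80.4%. In monocytes and macrophages at day 2 the same median was 0.342%. Carry-over in the other direction was smaller and uneven: over the mural core genes, the endothelial labels stood at a median of 4.07% of the labelled level at day 2 and 3.03% at day 7, with Rgs5 highest at 23.2% and 10.95%. Over contractile smooth muscle genes the median was 20.5% and 9.16%, reaching 93.0% and 91.4% for Smtn. Over pericyte genes it was 4.13% and 4.95%, reaching 98.0% for Mcam at day 2 and 123% for Anpep at day 7. Many of these genes are thus not particular to mural cells here.

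Among the mural core genes, Rgs5 was also the marker least able to tell the groups apart. It stood at 1468 CPM in the whole label and 341 CPM in endothelial labels at day 2, and at 2699 and 296 CPM at day 7. The cells with both lists had the highest median counts of the groups, and the part of doublets in them was not tested.

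To separate mural from endothelial signal, cells with at least 3 mural core counts in which endothelial core counts made up under 20% of the counts of both lists were taken as a further group, here called mural-led. This rule was set after the data were seen and uses the marker genes themselves, so marker levels in the group describe the choice. It kept 28 cells at day 2, with 188432 counts and a median of 5577.5, and 39 cells at day 7, with 174930 counts and a median of 2962. An endothelial share of 15% to 25%, near the limit, was seen in 13 labelled cells at day 2 and 8 at day 7. In mural-led cells the median endothelial gene stood at 16.7% of its level in endothelial labels at day 2 and 6.12% at day 7. Markers of other cell types gave few counts at day 2 and, for most lists, more at day 7. Myeloid markers summed to 20 and 51 counts, myogenic markers to 0 and 20, tenocyte markers to 7 and 19, glial markers to 0 and 2, lymphocyte markers to 0 and 0 and erythroid genes to 3 and 1. The myogenic sum at day 7 was 114 CPM, against 112 CPM in nearly empty droplets. Markers of fibro-adipogenic progenitors (FAPs) summed to 674 and 1023 CPM against 1078 and 7408 CPM in those droplets, and genes of muscle fibres to 79.6 and 1286 CPM against 717 and 25176 CPM. Neutrophil markers gave 117 counts at day 7, all of them in 1 cell. The median mitochondrial share of mural-led cells was 6.36% at day 2 and 9.27% at day 7. The part of ambient RNA in these levels was not tested.

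**Figure D2:**
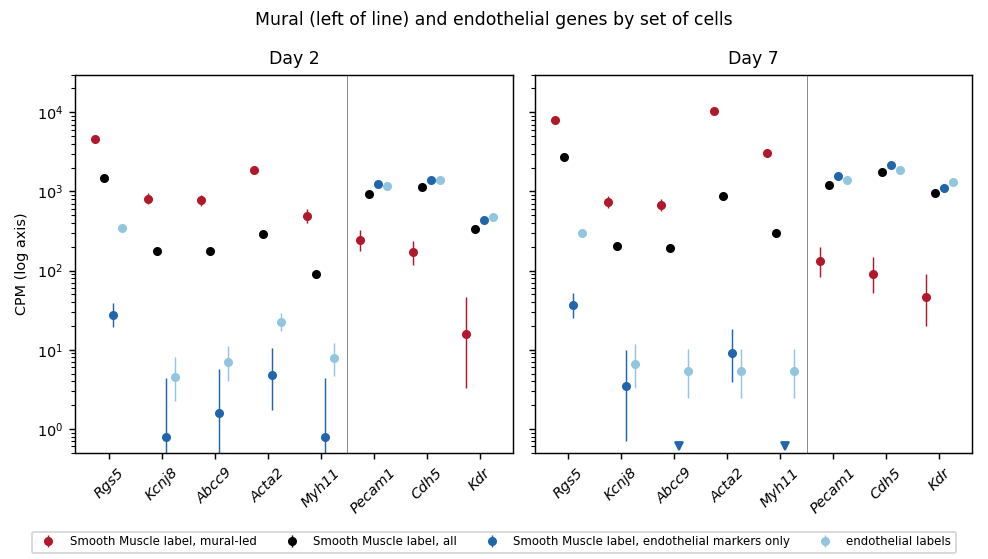
CPM (log axis) of 5 mural and 3 endothelial genes at day 2 (left) and day 7 (right) in mural-led cells, all labelled cells, labelled cells with endothelial markers only and endothelial labels, with bars for 95% Poisson intervals and triangles at the bottom for 0 counts. Acta2 stood at 1852 CPM in mural-led cells at day 2 and 10376 CPM at day 7, and Pecam1, Cdh5 and Kdr were lower in mural-led cells than in the other 3 groups.

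The summed level of contractile genes was higher at day 7, and the difference was larger in the mural-led cells than in the label as a whole. In the cells with both lists, some of which are also mural-led, it was not higher, at 3613 CPM at day 2 and 3199 CPM at day 7. A gene was compared where it had at least 50 counts over both libraries, and at least 2-fold is said of the ratio alone, with no test. Of 22 contractile smooth muscle genes, 18 had the counts needed for a ratio in the whole label, and 9 were at least 2-fold higher at day 7 and 0 at least 2-fold lower, with a median log2 ratio of 1.08. Summed over the list, the label stood at 3115 CPM at day 2 and 4948 CPM at day 7, while nearly empty droplets stood at 479 and 5869 CPM, above the label at day 7. Over all 9361 genes tested in the label, 11.2% were at least 2-fold higher and 7.34% at least 2-fold lower, with a median of 0.06. In mural-led cells 13 of 18 contractile genes were at least 2-fold higher and 0 lower, with a median of 2.21, against 8.38% higher and 14.5% lower of 1170 genes tested and a median of −0.15. The minimum is on the counts of both days together, so that a gene low on one day can enter through the other, as Lmod1 did with 10 and 118 counts, and such counts and medians in mural-led cells are no support for a direction. The endothelial labels, read the same way, gave 3 higher and 3 lower of 12, with 12.1% and 9.46% of 7657 genes past 2-fold. The contractile list, with all 22 genes and no minimum, summed to 10534 CPM in mural-led cells at day 2 and 42183 CPM at day 7, a log2 ratio of 2.00. A single cell held 1032 of the 1985 counts at day 2, and without the cell with most counts on each day the list stood at 6093 and 37694 CPM, a log2 ratio of 2.63. The droplets held 15.1 and 126 CPM of Acta2 and 6.22 and 38.9 CPM of Myh11, below the label on both days, but 44.9 and 1547 CPM of Tpm2, a tropomyosin that muscle fibres share. Genes of muscle fibres were also higher at day 7 in mural-led cells, as given above, and the part of free RNA in the contractile difference was not tested.

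Acta2 stood at 294 CPM in the label at day 2 and 865 CPM at day 7 (log2 ratio 1.56, 1.46 to 1.65). In mural-led cells it stood at 1852 and 10376 CPM (349 and 1815 counts, log2 ratio 2.49, 2.32 to 2.66), and in endothelial labels at 22.7 and 5.36 CPM. Mural-led cells held 23.3% of the label's Acta2 counts at day 2 and 77.4% at day 7. Acta2 is among the genes that chose these cells, so this share describes the choice. In cells with both lists Acta2 stood at 382 and 335 CPM (log2 ratio −0.19, −0.33 to −0.05). That group overlaps with the mural-led cells and at day 2 includes a cell with 269 Acta2 counts. Its ratio is therefore not separate from theirs. At day 2 a single mural-led cell of 32030 counts held 269 of the 349 Acta2 counts. Without the cell with most Acta2 counts on each day, the log2 ratio was 4.14 (3.82 to 4.49). The direction did not rest on that cell, but the size did.

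Many contractile genes carry the CArG box, the motif bound by serum response factor, before their start. Myl9, the smooth muscle myosin light chain, is shown because it was the contractile gene with an exact match in the 250 bases before its start in the RefSeq table (GRCm38.p6). The stretch is chr2:156775214-156775413 on the plus strand, written 5′ to 3′ and ended before the first exon of either annotation. The capitals mark the exact match, which begins 161 bases before the RefSeq start, and a match with 1 mismatch, which begins 99 bases before it.
Myl9: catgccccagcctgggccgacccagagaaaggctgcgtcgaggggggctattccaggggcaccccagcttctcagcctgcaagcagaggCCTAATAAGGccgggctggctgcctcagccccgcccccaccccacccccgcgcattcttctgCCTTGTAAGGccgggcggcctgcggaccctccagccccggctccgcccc
Of 17 contractile genes with an entry, 1 held an exact CArG box in this window and 7 (41.2%) held one with at most 1 mismatch. Of 11 pericyte genes with an entry, 0 and 2 (18.2%) did so, and over 27025 genes the shares were 1.62% and 21.1%. Other annotations can place a start elsewhere, as for Acta2, for which the RefSeq window lies mostly inside the gene coordinates given above. The motif reads the same on both strands, and a match is a string of letters, not a site shown to be bound.

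Other parts of the contractile apparatus were also higher at day 7. Myh11 stood at 90.1 CPM in the label at day 2 and 302 CPM at day 7 (log2 ratio 1.75), and at 488 and 3018 CPM in mural-led cells (2.63, 2.31 to 2.96). Tagln, an actin-bundling protein of smooth muscle, stood at 1083 and 6848 CPM in mural-led cells, and Myl9 at 605 and 3979 CPM. Lmod1, which nucleates actin filaments, stood at 53.1 and 675 CPM there, from 10 and 118 counts. Pln, which restrains the calcium pump of the sarcoplasmic reticulum, gave 13 and 93 counts and Cnn1, calponin, 11 and 54, with 0 counts of either in endothelial labels on both days. At day 2 all 13 Pln counts, all 11 Cnn1 counts and 9 of the 10 Lmod1 counts came from 1 cell each. Without the largest cell the log2 ratio of Lmod1 was 6.49 (3.98 to 11.8) in place of 3.67, with low counts not set to 3. Its size is poorly known, because little Lmod1 was then left at day 2, at 6.39 CPM. Mustn1, a small nuclear protein of muscle, had log2 ratios of 2.02 in the label and 2.04 in mural-led cells.

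Not every contractile gene differed by that much. Des, the intermediate filament protein desmin, had a log2 ratio of −0.04 in the label and 0.17 (−0.32 to 0.66) in mural-led cells. Mylk, the kinase that starts smooth muscle contraction, had 0.34 and 0.75, and Sncg, a synuclein found in vascular smooth muscle, −0.57 and −0.30. For the tropomyosin Tpm1 the label gave −0.01 and the mural-led cells 1.65, and for caldesmon, Cald1, −0.44 and 0.80. In endothelial labels the log2 ratios of Tpm1 and Cald1 were 0.15 and −1.17.

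Pericyte genes, taken as a list, differed less between days than contractile genes. Of 16 pericyte genes, 15 could be tested in the label, with 1 at least 2-fold higher, 1 lower and a median log2 ratio of 0.22, near the 11.2% and 7.34% of all genes. In mural-led cells 0 were higher and 1 lower of 15, with a median of 0.02, against 8.38% and 14.5% of all genes there, and the list summed to 13952 CPM at day 2 and 16366.5 CPM at day 7. Mural-led cells with fewer than 2 Myh11 counts were an exception, with 15060.5 and 27309 CPM, whereas those with 2 or more stood at 12521 and 12555.5 CPM. Kcnj8 stood at 177 and 202 CPM in the label and at 812 and 743 CPM in mural-led cells (log2 ratio −0.13, −0.48 to 0.22). Abcc9 stood at 174 and 190 CPM and at 770 and 680 CPM (−0.18, −0.54 to 0.18). Both channel subunits were at 4.54 to 7.01 CPM in endothelial labels. Vtn, the adhesion protein vitronectin, stood at 950 and 732 CPM in mural-led cells, and Higd1b at 345 and 292 CPM.

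Within this list some genes went their own way. The summed level of Rgs5 was higher at day 7 in mural-led cells, 4543 against 8106 CPM (log2 ratio 0.84, 0.71 to 0.96). Its log2 ratio in the label was 0.88. The share of mural-led cells with Rgs5 was not higher, with 27 of 28 cells at day 2 and 29 of 39 at day 7. After thinning, these shares were 96.2% (80.4 to 99.9) and 67.7% (48.6 to 83.3). Notch3, the main Notch receptor of mural cells, had −0.06 in the label and 0.71 (0.33 to 1.10) in mural-led cells. Pdgfrb, the PDGF receptor through which endothelium recruits pericytes, was lower at day 7, with −0.60 in the label and −0.53 (−0.83 to −0.23) in mural-led cells. Gm13889, a gene model without a settled role, was the member past 2-fold in the lower direction, with −2.28 and −1.58. Art3, an ADP-ribosyltransferase, was the member past 2-fold in the higher direction in the label, with 1.85 against 0.83 in mural-led cells and 3.27 in endothelial labels.

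**Figure D3:**
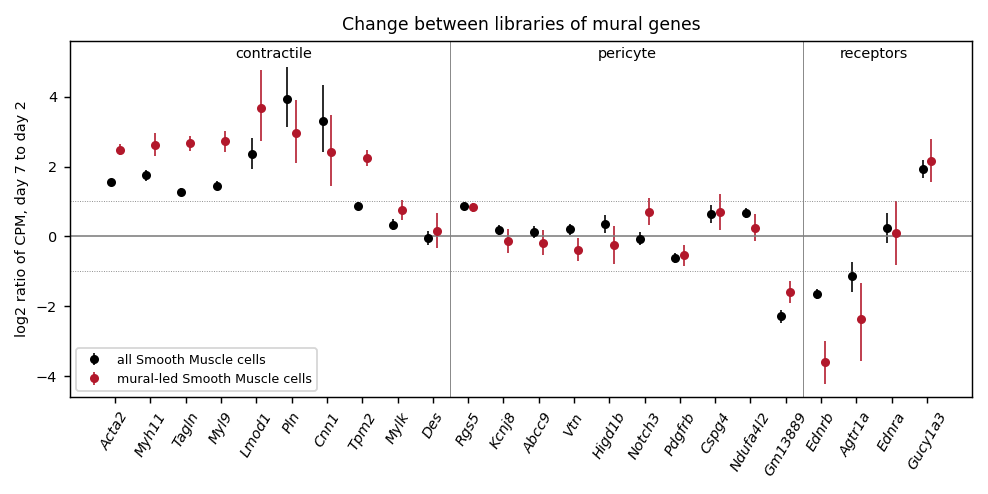
Log2 ratio of CPM at day 7 to day 2 for contractile, pericyte and receptor genes in all labelled cells (black) and mural-led cells (red), with bars for 95% exact intervals and dotted lines at 2-fold. Contractile genes from Acta2 to Tpm2 lie above 2-fold in mural-led cells, Kcnj8 and Abcc9 lie near 0, and Ednrb lies at −1.65 and −3.58.

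A larger share of mural-led cells held Myh11 at day 7. At least 2 counts of Myh11 were held by 8 of 28 mural-led cells at day 2 (28.6%, 13.2 to 48.7) and 22 of 39 at day 7 (56.4%, 39.6 to 72.2), although the day 7 cells were shallower. Thinned to 2000 counts the shares were 4 of 26 (15.4%) and 18 of 31 (58.1%, 39.1 to 75.5). At least 2 counts of Kcnj8 and Abcc9 together were held by 25 of 28 cells and 23 of 39, and at 2000 counts by 21 of 26 and 18 of 31. Cells with Myh11 and without the channel numbered 1 at day 2 and 13 at day 7, those with both 7 and 9, and those with the channel alone 18 and 14. In endothelial labels 4 of 336 and 2 of 333 cells held at least 2 Myh11 counts. Among labelled cells with both marker lists, 69 of 187 (36.9%) and 39 of 113 (34.5%) did, so their share was not larger at day 7. Myh11, Kcnj8 and Abcc9 are among the genes that chose these cells and each day is 1 library, so these shares only describe the cells. A difference in how many cells of a kind were caught and a difference within cells of that kind cannot be told apart. Among mural-led cells with fewer than 2 Myh11 counts, the contractile list stood at 5378 CPM at day 2 and 9051 CPM at day 7. Among those with 2 or more it stood at 17189 and 53721 CPM, but 1 of the 8 cells at day 2 held 1032 of its 1414 counts. Without the cell with most counts on each day the levels were 7605 and 48343 CPM. That day 2 cell had an endothelial share of 19.2%, just under the limit of 20%.

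Receptors and enzymes that set vessel tone went in different directions. Of 23 vasoactive receptors and channels, 14 could be tested in the label, with 4 at least 2-fold higher and 2 lower, against 11.2% and 7.34% of all genes. In mural-led cells 6 could be tested, with 2 higher and 2 lower, against 8.38% and 14.5%, and these numbers are too small to set the list apart from other genes. Ednrb, an endothelin receptor (chr14:103814625-103844402, minus strand), was lower at day 7, with 522 CPM in the label at day 2 and 166 CPM at day 7 (log2 ratio −1.65, −1.80 to −1.50). In mural-led cells it gave 335 and 26 counts, with 1778 CPM (1593 to 1979) and 149 CPM (97.1 to 218), a log2 ratio of −3.58. Endothelial labels went the other way, with 72.6 and 112 CPM (0.63), but monocytes and macrophages did not, with Ednrb detected in 13.0% of cells at day 2 and 0.930% at day 7 after thinning to 2000 counts. At 2000 counts per cell, Ednrb was detected in 92.3% of mural-led cells at day 2 and 16.1% at day 7, and in 9.04% and 21.7% of endothelial labels. At day 7 the intervals of those shares overlapped (5.45 to 33.7 and 17.3 to 26.6).

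The summed level of Ednrb was lower at day 7 both in mural-led cells with at least 2 Myh11 counts and in those with fewer. Cells with at least 2 Myh11 counts stood at 1289 CPM at day 2 and 108 CPM at day 7, and those with fewer at 2157 and 266 CPM. Myh11 is among the genes that chose these cells, and only 8 cells at day 2 held at least 2 counts of it. These levels thus only describe the cells, and the cause of the difference was not tested. Ednra, the other endothelin receptor, had log2 ratios of 0.25 (−0.18 to 0.67) in the label and 0.11 (−0.81 to 1.03) in mural-led cells. Agtr1a, an angiotensin receptor, was lower at day 7, with −1.14 in the label and −2.37 (−3.58 to −1.33) in mural-led cells, from 50 and 9 counts. At 2000 counts per cell it was detected in 23.1% and 19.4% of mural-led cells, a difference that could not be seen at this depth.

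Gucy1a3 and Pde5a, which act in the relaxing pathway of nitric oxide, were higher at day 7. Gucy1a3, a subunit of the nitric oxide receptor, stood at 39.2 and 149 CPM in the label and at 159 and 709 CPM in mural-led cells (log2 ratio 2.15, 1.57 to 2.78), with 1 and 6 counts in all endothelial labels. It was detected at 2000 counts in 30.8% of mural-led cells at day 2 and 74.2% at day 7, against 0% and 1.24% of endothelial labels. Pde5a, which breaks cyclic GMP down, had log2 ratios of 1.06 in the label and 1.98 (0.89 to 3.23) in mural-led cells, from 9 and 33 counts.

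**Figure D4:**
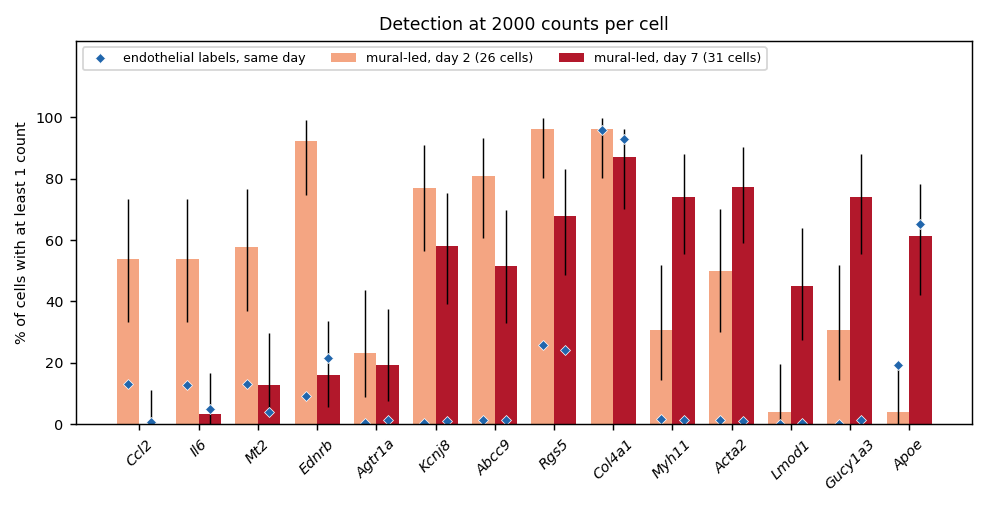
Percentage of mural-led cells with at least 1 count of each gene after thinning to 2000 counts per cell, at day 2 (26 cells) and day 7 (31 cells), with bars for 95% exact intervals and diamonds for endothelial labels of the same day. Ccl2 was detected in 53.8% and 0%, Ednrb in 92.3% and 16.1%, and Myh11 in 30.8% and 74.2% of mural-led cells.

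Part of the inflammatory and immediate early genes were higher at day 2. Of 30 chemokines and inflammatory genes, 21 could be tested in the label, with 3 at least 2-fold higher at day 7 and 10 lower, against 7.34% of all genes lower. Endothelial labels gave 3 higher and 7 lower of 17, against 12.1% and 9.46% of all genes, and FAP labels 2 higher and 17 lower of 28, against 22.7% and 14.4%. In mural-led cells 8 could be tested, with 0 higher and 7 lower, against 14.5% of all genes lower there, but the minimum of 50 counts over both days lets a gene enter through day 2 alone, so this count is no support for the direction. Ccl2, the chemokine that draws monocytes, gave 315 counts in mural-led cells at day 2 and 0 at day 7. With day 7 set to 3 counts, its level was at least 97.5-fold lower. It was detected in 20 of 28 cells at day 2 and in 0 of 39 at day 7. Ccl2 stood at 317 and 17.3 CPM in the label, at 203 and 2.38 CPM in endothelial labels and at 1125 and 100.3 CPM in nearly empty droplets (barcodes with 1 to 100 counts), so free RNA of this gene was also higher at day 2, and its part in the difference was not tested. At 2000 counts it was detected in 53.8% of mural-led cells at day 2 and 13.0% of endothelial labels, below the 82.9% of monocytes and macrophages, in which it was also lower at day 7, at 13.5%.

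Other inflammatory signals showed the same direction in mural-led cells. Il6, a cytokine, stood at 504 and 22.9 CPM (95 and 4 counts), and Cxcl1, a neutrophil chemokine, at 674 and 149 CPM. Tnfaip6, a hyaluronan-binding protein induced by inflammation, gave 60 and 6 counts. Cxcl12, which is made constitutively by stromal and endothelial cells, did not share the direction, with a log2 ratio of −0.13 in the label and 0.95 (0.55 to 1.35) in mural-led cells.

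Immediate early genes are also known to be induced by dissociation of tissue. Of 20 such genes, 0 were at least 2-fold higher and 8 lower in the label, with a median of −0.85. Over all genes tested there, 11.2% were higher and 7.34% lower. Endothelial labels gave 0 higher and 8 lower and a median of −0.70, against 12.1% and 9.46% of all genes. FAP labels did not share the direction, with 6 higher and 3 lower and a median of 0.27, against 22.7% and 14.4%. There were 0 higher and 16 lower of 19 in mural-led cells, with a median of −2.08, against 8.38% and 14.5%. As for the chemokines, this count is no support for the direction. With all 20 genes and no minimum, the list summed to 26301 CPM in mural-led cells at day 2 and 6214 CPM at day 7. Klf4, a transcription factor that represses contractile genes in smooth muscle, stood at 1056 and 74.3 CPM in mural-led cells (log2 ratio −3.83, −4.76 to −3.02), and 100 of its 199 day 2 counts were in 1 cell. Without the cell with most Klf4 counts on each day its log2 ratio was −3.43. Nr4a1, an orphan nuclear receptor, stood at 1130.4 and 103 CPM in mural-led cells and at 76.3 and 76.9 CPM in endothelial labels. Fosb, an AP-1 subunit and the member with the lowest ratio in the label, had −2.17 there and −2.74 in mural-led cells. The growth-induced transcription factors Egr1 and Jun had −0.27 and −0.53 in the label, and −2.08 and −2.03 in mural-led cells. Endothelial labels gave −0.29 for Egr1 and −0.40 for Jun, close to the label as a whole. Of 13 metallothionein and stress genes, 12 could be tested in the label, with 0 higher and 3 lower, against 11.2% and 7.34% of all genes. Only 6 could be tested in mural-led cells, with 1 higher and 4 lower, against 8.38% and 14.5%. The same minimum on counts applies, so that count too is no support for a direction. In mural-led cells Mt1, a metallothionein, had a log2 ratio of −1.63 and Hspa5, a chaperone of the endoplasmic reticulum, −2.07, whereas Cryab, a small heat shock protein, was the member higher at day 7, with 16 and 42 counts.

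Some enzymes of cholesterol synthesis were among the genes ranked by their ratio, not by list. Ranking took 6239 genes with enough counts and the smaller of the ratios in all labelled cells and in mural-only cells, and the 12 genes leading the lower direction included the sterol enzymes Idi1, Sqle, Cyp51, Hsd17b7 and Msmo1. In the label their log2 ratios were −3.44, −3.71, −3.16, −2.96 and −2.43. Mural-led cells gave Idi1 56 and 1 counts, Sqle 31 and 1 and Cyp51 43 and 0. The endothelial labels moved the same way, with −2.63 for Idi1 and −2.77 for Cyp51. These genes were picked out after the ranks were seen, and no list of sterol genes was tested. Gdf15, a stress-induced cytokine, was among the same 12 genes, with 40 and 2 counts in mural-led cells.

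The 12 genes leading the higher direction included Apoe, Mir143hg, Olfr558, Lmod1, Sparcl1, Mustn1, Gucy1a3, Tcf15, Sorbs2, Gstm1 and Myh11. Mir143hg, the host transcript of smooth muscle microRNAs, gave 10 and 114 counts in mural-led cells, and Olfr558, an olfactory receptor found in vascular smooth muscle, 9 and 51. Sparcl1, a matrix-associated glycoprotein, stood at 812 and 3053 CPM in mural-led cells but was also higher in endothelial labels, at 102 and 2368 CPM. Apoe, a lipid carrier made in quantity by macrophages, stood at 80.3 and 502 CPM in the label, 106 and 641 CPM in endothelial labels and 713 and 9534 CPM in nearly empty droplets. The level of Apoe in these cells thus stood below that of free RNA on both days, and its difference cannot be told apart from that background.

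Some matrix genes had different ratios in the label and in its mural-led cells. Of 18 basement membrane genes, 5 were at least 2-fold higher and 0 lower in the label, against 11.2% and 7.34% of all genes. In mural-led cells 1 was higher and 0 lower of 12, near the 8.38% of all genes higher there. Of 26 genes of fibrillar and matricellular matrix, 8 were higher and 4 lower of 24 tested in the label, with a median of 0.52, against 11.2% and 7.34% of all genes. The mural-led cells gave 3 and 3 of 12, with a median of 0.20, against 8.38% and 14.5%. Col4a1, a chain of type IV collagen, had a log2 ratio of 0.20 in the label and −0.86 (−1.09 to −0.64) in mural-led cells. Col15a1, a basement membrane collagen, had 2.65 in the label, 2.24 in endothelial labels and 0.11 (−0.65 to 0.86) in mural-led cells. Eln, elastin of the arterial wall, had 1.54 in the label and 2.48 (1.19 to 4.03) in mural-led cells, from 6 and 31 counts, or 3.39 without the largest cell of each day. Proteases and inhibitors of matrix were lower for 6 and higher for 2 of 12 in the label, against 7.34% and 11.2% of all genes. They were lower for 3 of 7 in mural-led cells, against 14.5%, and the medians were similar, at −0.71 and −0.83. Those lower in mural-led cells included Adamts1, a protease, at 1141 and 177 CPM. Timp1, an inhibitor of matrix metalloproteinases, gave 26 and 2 counts there, too few to be tested. Thbs1, thrombospondin, stood at 642 and 91.5 CPM, and at 326 and 54.4 CPM without the largest cell of each day, which held 70 of its 121 counts at day 2.

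Interferon-stimulated and endothelial genes gave nearly the same counts in the label as in endothelial labels. Interferon-stimulated genes were at least 2-fold higher for 13 and lower for 0 of 21 in the label and for 14 and 0 of 21 in endothelial labels, against 11.2% and 12.1% of all genes higher. FAP labels gave 17 higher and 0 lower of 21, with a median of 1.47, against 22.7% of all genes higher. The difference was thus not particular to the label and the endothelial labels. In mural-led cells 0 of 6 were higher and 1 lower, too few to read against the 8.38% of all genes higher there. Psmb9, an immunoproteasome subunit, gave log2 ratios of 2.39, 2.68 and −0.31, the last from 4 and 3 counts. Endothelial genes themselves were higher for 13 of 24 in the label and 14 of 24 in endothelial labels. PDGF and angiogenic signals gave 1 higher and 5 lower of 17 in the label, with a median of −0.20, against 1 higher and 6 lower of 11 and a median of −1.70 in endothelial labels and 1 lower of 3 in mural-led cells. Over all genes, 7.34%, 9.46% and 14.5% were lower in these groups, in the same order. Apln, which marks growing endothelial tips, stood at 700 and 45.4 CPM in the label and 1026 and 54.2 CPM in endothelial labels, with 16 and 0 counts in mural-led cells. Pgf, a placental growth factor, stood at 550 and 22.1 CPM and 935 and 8.94 CPM, with 17 and 1 counts in mural-led cells. Of 7645 genes tested in both groups of cells, 1294 were past 2-fold in the label, 1055 of these were past it in the same direction in endothelial labels and 2, Acta2 and Myl9, in the opposite direction.

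**Figure D5:**
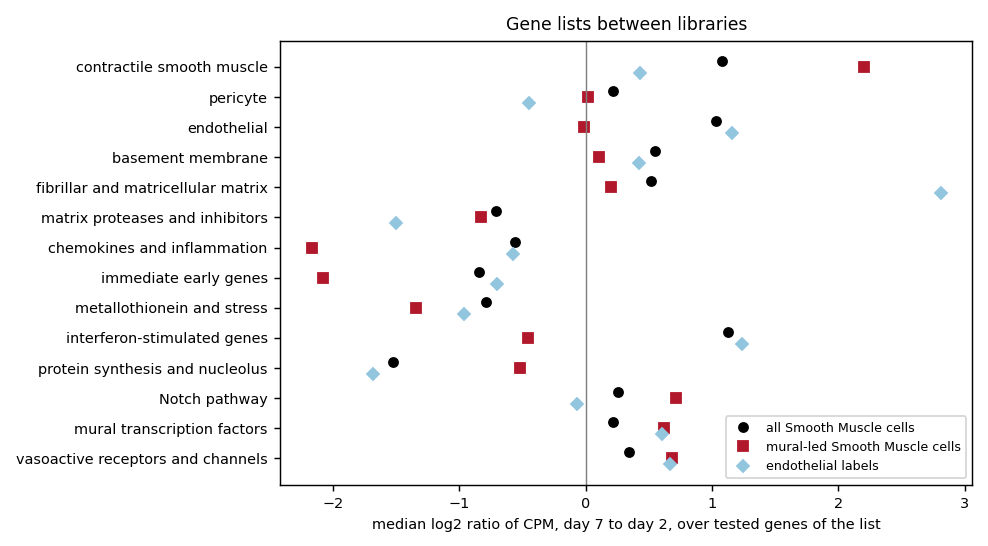
Median log2 ratio of CPM at day 7 to day 2 over the tested genes of each list (y axis) in all labelled cells, mural-led cells and endothelial labels. For interferon-stimulated genes the label (1.13) lies by the endothelial labels (1.23), and the mural-led cells lie at −0.46 over 6 tested genes. For contractile genes the mural-led median is 2.21. Some of these genes chose the mural-led cells, and that median is no support for a direction.

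Of 14 Notch pathway genes, 12 could be tested in the label, with 1 higher and 0 lower, against 11.2% and 7.34% of all genes. The mural-led cells gave 0 higher and 1 lower of 5, against 8.38% and 14.5%. Heyl, a Notch target of mural cells, was the gene higher in the label, with 21.1 and 49.5 CPM (log2 ratio 1.23) and 0.91 (0.08 to 1.78) in mural-led cells. Pdgfa, a PDGF ligand, was lower at day 7, with −1.67 in the label and −1.23 (−1.73 to −0.74) in mural-led cells. Of 22 mural transcription factors, 16 were tested in the label, with 2 higher and 1 lower, near the 11.2% and 7.34% of all genes. Another 2 higher and 1 lower of 9 in mural-led cells are too few to read against 8.38% and 14.5%. Of 15 genes of protein synthesis and the nucleolus, 13 were lower in the label, with a median of −1.52 against 7.34% of all genes lower. In endothelial labels 14 were lower, with a median of −1.68, against 9.46%. FAP labels gave 15 lower of 15, with a median of −2.33, against 14.4%. In mural-led cells 3 of 7 were lower, with a median of −0.52, against 14.5%. Of 20 hypoxia and glycolysis genes, 17 were tested in the label, with 1 higher and 4 lower, against 11.2% and 7.34% of all genes. The 6 tested in mural-led cells, with 0 past 2-fold, are too few to read against 8.38% and 14.5%. Cell cycle genes gave 0 genes that could be tested in mural-led cells, and Mki67, the proliferation marker, gave 0 counts there on both days against 1 and 24 in the label.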

How the data were processed

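Single-cell libraries came from dissociated tibialis anterior muscle, 1 at day 2 and 1 at day 7. Raw UMI counts of 27998 genes were deposited by the authors for every barcode and again for called cells. Per the file headers the mm10 counts came from Cell Ranger 3.0.1, while the labels name 3.1.0. Deposited beside them were estimated counts after SoupX and an annotation table (no numeric measure used), made with Seurat 3.1.5 per the labels. The study's methods describe doublet removal. No doublet caller was run here.

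Cells were kept at 750 genes, 1000 transcripts and at most 30% mitochondrial transcripts in SoupX values. Uncorrected counts were summed per library and group. Sums have Poisson, shares Clopper-Pearson and ratios conditional binomial exact 95% intervals, in Python 3.11.15 with scipy 1.17.1. Genes with at least 50 counts over both libraries were compared by ratio, and 2-fold was counted without a test. Named genes were members of the mural lists, extremes of other lists and the 12 leading genes per direction and for the label. Other members named were chosen after their values were seen. Some of the leading genes are not reported here. Outside the table, 680 and 477 called barcodes passed the same limits. Nearly empty droplets had 1 to 100 counts. Members, lists and tests were chosen with earlier results of these data known. Intervals were tested on simulated data. Alternatives were SoupX values, thinning, other limits, scalings and subsets of cells.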

Additional observations from a re-analysis of the deposited data

Results flagged for a closer look

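Acta2 and Myl9 differed between days in opposite directions in the cells annotated as Smooth Muscle and in those annotated as endothelial. Acta2 had a log2 ratio of day 7 to day 2 of 1.56 in the label (1500 and 2344 counts) and −2.08 in endothelial labels (55 and 9 counts). Myl9 had 1.44 (822 and 1187 counts) and −1.51 (70 and 17 counts). With 1 library per day the difference between the cell types was not tested.

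Mural-led barcodes also occurred among called barcodes that met the limits and have no entry in the annotation table, with 11 of 680 at day 2 and 48 of 477 at day 7. Of these, 6 and 10 held at least 2 counts of Kcnj8 and Abcc9, and their median counts were 4625 and 8174.5.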

How the results depend on the processing

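Depth set the share of labelled cells called mural. It was 66.1% at day 2 and 63.8% at day 7, and 47.4% and 46.6% at 2000 counts per cell, with a range over all settings of 47.4% to 69.1% and 46.6% to 67.7%. The share with endothelial markers ranged over 93.0% to 96.4% and 82.8% to 87.4%. The median endothelial level relative to endothelial labels ranged over 77.4% to 84.1% and 72.9% to 84.2%, lowest at 72.9% at day 7 when cells were averaged with equal weight. Genes higher at day 7 numbered 1047 of 9361 tested and genes lower 687. Restricting cells or counts left fewer genes to test: 79 and 86 of 573 in mural-only cells, 98 and 170 of 1170 in mural-led cells, and 457 and 445 of 5593 at 200 counts. No minimum on counts gave 2415 higher of 16478. Median-of-ratios scaling lowered every log2 ratio by 0.06 and gave 936 and 778. SoupX values gave 1004 and 707, and leaving out cells with both marker lists, chosen after seeing the data, 727 and 592.

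Among genes and lists at least 2-fold apart in the label, and with counts below 3 set to 3, the ratio changed sign in mural-only cells for the summed endothelial list (−0.35), C1qb (−1.24), Col15a1 (−0.66), Plaur (0.34) and Psmb9 (−1.24). It changed sign in mural-led cells for the endothelial list (−0.11), Fcer1g (0.11), Plaur (0.11), Psmb9 (−0.31), Slc16a3 (0.84), Sox18 (−0.31), Tie1 (−0.18) and Tnc (1.11). The cause was not tested. Smaller ratios also differed in sign between the label and mural-led cells, among them those of Col4a1, Cald1, Notch3 and Cxcl12. No paired analysis was possible because each day has 1 library. In mural-led cells, 1 cell per day can decide the size of a ratio: without the largest cell, Myh11 had a log2 ratio of 3.50 in place of 2.63, Tagln 4.08 in place of 2.66 and Mustn1 4.68 in place of 2.04, whereas Rgs5 had 0.78 in place of 0.84 and Ednrb −3.78 in place of −3.58.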

Other observations

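Labelled cells also held traces of other cells. Erythroid genes summed to 1049 CPM in the label at day 2 and 527 CPM at day 7, and 1 cell held 2437 of the 5360 counts at day 2. Myogenic markers gave 4 counts at day 2 and 150 at day 7, when 15 cells held at least 3. Myeloid markers stood at 187 and 149 CPM against 4779 and 6866 CPM in nearly empty droplets.

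The labelled cells with endothelial markers only differed from endothelial labels in a few genes. Hbb-bs, a beta globin, stood at 17.5 and 2.29 CPM in the former and 928 and 522 CPM in the latter. Outside the label the mural-led rule was also met. At day 2 it took 5 cells labelled as neutrophils, 1 as monocyte or macrophage and 1 of the remaining types, all without the channel. At day 7 it took 151 cells of the remaining types, 2 of them with the channel. Cells with FAP labels that met it numbered 26 at day 2, 0 of them with the channel, and 146 at day 7, 2 of them with it, where the channel means at least 2 counts of Kcnj8 and Abcc9 together.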
